A study of Mus musculus with 4 samples.

Results

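The genes described here are those expressed from mouse chromosome 15 in 4T1 cells. A row of the expression table was taken where its identifier placed it on chromosome 15, where the platform annotation gave it a single gene symbol, and where its mean over the 4 arrays was at least 6 on the log2 scale. A gene with several such rows would have been represented by the brightest, but no member had more than 1. Of 2323 rows placed on chromosome 15, 1019 had a single symbol and stood for 1015 genes, 58 had several symbols and 1246 were not listed in the annotation. This left 385 genes, set against 10551 genes that met the same rule over all chromosomes. The members were thus chosen by their mean level, which is not a finding. The difference between the groups was not part of the rule, but chromosome 15 was picked with earlier results of these data known, so the differences below are a description. Of the members, 7 had a group mean of at least 6 in shMCT-1 alone and 4 in NC alone, which fixed the direction of their difference. Just inside the threshold lay Trabd at a mean of 6.005, Lmbr1l at 6.01 and Csrnp2 at 6.01, and just outside it lay the predicted gene Gm23327 at 5.95, Dgat1 at 5.94 and Zbed4 at 5.93.

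The study profiled 4T1, a mouse mammary tumour line used as a model of metastatic triple-negative breast cancer, on Affymetrix whole-transcript arrays. The NC group was 4T1 cells with a scramble control, and the other group was 4T1 cells labelled shMCT-1, in which a short hairpin RNA was directed at MCT-1, each with 2 arrays given as biological replicates. The shMCT-1 cells were clones selected in puromycin at 0.5 ug per ml for 2 weeks. Whether the replicates of a group were separate clones, or whether the NC cells also received puromycin, is not stated in the labels. The spread between 2 arrays therefore covers only these samples, which may be technical. The comparison was shMCT-1 minus NC, and a positive value below is a higher level in the arrays labelled shMCT-1.

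Genes that lie side by side on a chromosome can share regulatory elements, chromatin state and DNA dosage, so their RNA levels are often described by position as well as by function. Mouse chromosome 15 joins stretches that in humans lie on different chromosomes, and it carries Myc, the growth-promoting transcription factor gene, next to the long noncoding RNA gene Pvt1. Myc drives ribosome production, translation and cell division, and its region is a frequent site of rearrangement and gain in mouse and human tumours. Expression arrays measure RNA and not DNA copies.

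Promoter sequence was available in the RefSeq promoter table (build GRCm38.p6) for 173 of the 385 members. The bases before the start site are shown for Srebf2, Nr4a1 and Npr3. These were, among members with an entry, the pair with the lowest unadjusted p that were higher and the member with the lowest that was lower, and they stand for the different responses found on the chromosome. Srebf2 lies at chr15:82147019-82147268 on the plus strand, Nr4a1 at chr15:101266596-101266845 on the plus strand, and Npr3 at chr15:11907372-11907621 on the minus strand, each run being the 250 bases upstream of the start, 5′ to 3′. Capitals mark matches, on either strand, to 3 motifs: the E-box CACGTG bound by Myc and by sterol regulatory factors, the sterol element ATCACNCCA, and the CCAAT box.
Srebf2: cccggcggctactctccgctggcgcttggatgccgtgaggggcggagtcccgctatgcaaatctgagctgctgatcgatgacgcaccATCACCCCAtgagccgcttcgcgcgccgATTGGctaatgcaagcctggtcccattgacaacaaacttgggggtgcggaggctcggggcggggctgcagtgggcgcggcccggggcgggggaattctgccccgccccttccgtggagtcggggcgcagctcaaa
Nr4a1: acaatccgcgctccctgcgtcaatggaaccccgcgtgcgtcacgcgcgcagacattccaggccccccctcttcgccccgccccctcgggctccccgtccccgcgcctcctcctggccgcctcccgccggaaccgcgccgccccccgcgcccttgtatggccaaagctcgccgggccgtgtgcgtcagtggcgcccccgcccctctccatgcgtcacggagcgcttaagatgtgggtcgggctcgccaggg
Npr3: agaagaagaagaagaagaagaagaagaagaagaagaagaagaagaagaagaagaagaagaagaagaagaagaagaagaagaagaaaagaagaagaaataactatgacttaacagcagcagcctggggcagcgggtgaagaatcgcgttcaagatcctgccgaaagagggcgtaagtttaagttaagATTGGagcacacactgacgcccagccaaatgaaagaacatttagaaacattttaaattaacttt

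The Srebf2 run held a sterol element, which began at position -163 from the start, and a CCAAT box on the opposite strand. The Nr4a1 run held none of the 3 motifs, and the Npr3 run held a CCAAT box on the opposite strand at position -64. The shares of promoters with a motif were close to those of the whole table. The E-box was present in 7.05% of 227 member promoters and in 6.02% of all 32851 promoters of the table, the sterol element in 0.881% and 0.712%, and the CCAAT box in 31.7% and 33.8%. Among 95 promoters of members that were higher without overlap between the groups, the shares were 8.42%, 1.05% and 37.9%. A match is a description of letters in these windows and not of binding.

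The 4 arrays had similar overall levels, with medians over all 65956 rows of 3.68 and 3.69 in NC and 3.73 and 3.68 in shMCT-1. Mcts1, the X-linked gene of MCT-1, a translation reinitiation factor, was at 7.86 and 8.05 in NC and at 7.81 and 7.89 in shMCT-1, a difference of -0.10 (SE 0.122, adjusted p = 0.945, limma). A lower level of the targeted transcript was therefore not detected, and the second group is named by its label throughout. The mean of the 6 epithelial markers was 14.59 and 14.52 in NC and 14.06 and 13.999 in shMCT-1. Among these, Krt14 was at 12.92 and 12.76 in NC and at 11.12 and 11.20 in shMCT-1 (difference -1.68, adjusted p = 0.669, limma), and Krt19 differed by -1.14 (adjusted p = 0.882, limma), neither past the threshold. The lower mean came mostly from Krt14 and Krt19, since Krt8, Krt18 and Epcam differed by -0.028, -0.022 and 0.020, and Cdh1 by -0.30. The part of these markers in the differences of chromosome 15 was not tested. Mean levels of the 3 lymphocyte, 3 endothelial and 3 fibroblast markers lay between 3.15 and 3.64 on every array. The 5 macrophage markers averaged 6.33 and 5.66 in NC and 5.98 and 5.77 in shMCT-1, with Ptprc and Adgre1 dim on all arrays. Cd68 was at 10.15 on NC replicate 1 against 8.26, 8.55 and 8.999 on the others, and Csf1r was also highest there, at 6.07. Cd14 went the other way, lowest on NC replicate 1 at 8.58 against 8.82, 9.11 and 8.67.

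Genes of chromosome 15 were, as a whole, slightly higher in the arrays labelled shMCT-1. The median difference of the 385 members was 0.14 on the log2 scale, or 1.10-fold, and the middle of the distribution ran from 0.014 to 0.33. Of the members, 296, or 76.9%, had a positive difference, where 53% of all 10551 expressed genes did. The median over all expressed genes was 0.017, and over the 10166 expressed genes outside chromosome 15 it was 0.012. At least 1.25-fold higher were 98 members and at least 1.25-fold lower were 21, while 1.5-fold was reached by 11 members upward and 7 downward. These fold counts were not made over all expressed genes, so they cannot set chromosome 15 apart from the other chromosomes. The 7 include Ly6c2 and Vdr, which were members through NC alone, so their direction was fixed.

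No member passed the test by itself. With limma fitted to all 65956 rows, 0 of 385 members had an adjusted p under 0.05, and 0% of all expressed genes did. Adjusted p-values of members ran from 0.882 upward. At an unadjusted p under 0.05 there were 54 members, 14% of them, against 8.71% of all expressed genes. They split into 47 higher, 12.2% against a background of 3.34%, and 7 lower, 1.82% against 5.37%. Requiring 1.5-fold as well left 9 members higher, 2.34% against 0.692%, and 2 lower, 0.519% against 1.42%. Those small counts moved with the array left out. The same counts over all expressed genes were not made for such fits, so none is given. The arrays of the groups did not overlap, with shMCT-1 higher, in 146 members or 37.9%, against 18.5% of all expressed genes. They did not overlap with shMCT-1 lower in 23 members or 5.97%, against 20.7%.

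The shift was graded over the arrays. Each member was set against its own mean over the 4 arrays, and the median of these deviations was -0.12 on NC replicate 1, -0.036 on NC replicate 2, 0.019 on shMCT-1 replicate 1 and 0.13 on shMCT-1 replicate 2. The groups did not overlap, but shMCT-1 replicate 1 lay close to NC replicate 2. Genes outside chromosome 15 had deviations of -0.032, 0.028, -0.040 and 0.035 on the same arrays, so that the replicates numbered 2 were the higher ones in both groups. NC replicate 1 was the lowest of the 4 arrays in 215 members, and shMCT-1 replicate 2 was the highest in 214. The nearest arrays of the groups still differed in the same direction, with shMCT-1 replicate 1 above NC replicate 2 in 237 of 385 members and a median difference of 0.048. The farthest, shMCT-1 replicate 2 against NC replicate 1, differed by a median of 0.24. Within groups, NC replicate 2 exceeded NC replicate 1 by a median of 0.081 and shMCT-1 replicate 2 exceeded replicate 1 by 0.11. These are as large as much of the shift between groups. Without each array in turn the members' median ran from 0.10 to 0.21 and the share of higher members from 70.9% to 75.8%.

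Setting chromosome 15 against the other chromosomes of the same array took away the part of the spread that all chromosomes shared. The members' median deviation minus that of all other expressed genes was -0.083 and -0.064 on the NC arrays and 0.059 and 0.092 on the shMCT-1 arrays. The arrays of a group then lay within an SD of 0.014 for NC and 0.023 for shMCT-1, and the difference between group means was 0.15. With 2 arrays a group, an exact permutation test could not give a two-sided p under 0.333, so none is given.

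**Figure D1:**
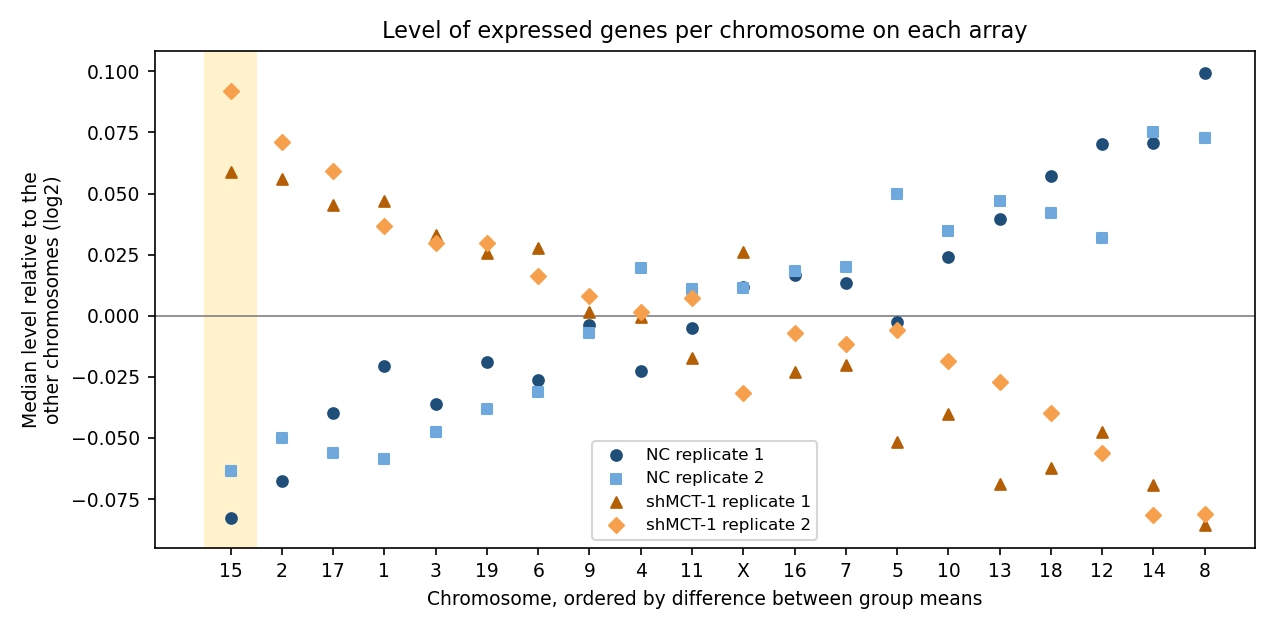
Median level of the expressed genes of each chromosome on each of the 4 arrays, relative to the expressed genes of all other chromosomes (log2, vertical axis), with chromosomes ordered by the difference between group means. Chromosome 15, shaded, has its NC arrays at -0.083 and -0.064 and its shMCT-1 arrays at 0.059 and 0.092, the widest upward gap of the 20.

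Chromosome 15 stood at the upper end of the 20 chromosomes but was not alone in being displaced. By this relative level it ranked 1, ahead of chromosome 2 at 0.12 and chromosome 17 at 0.10, and the lowest were chromosome 14 at -0.15 and chromosome 8 at -0.17. Of the 20 chromosomes, 8 had shMCT-1 arrays above NC arrays without overlap, 9 had them below, and 3 overlapped. Chromosome 15 also ranked 1 by median difference and by share of higher genes. Its median ranked 1 without each of the 4 arrays in turn. The share of higher genes was 71.9% on chromosome 17 and 71.0% on chromosome 2, so the distance from 76.9% was modest. On chromosomes 14 and 8 it was 27.2% and 25.7%. Whether the 20 chromosome medians differ beyond the arrays' spread was not tested.

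The upward shift was found in every large stretch of the chromosome. The chromosome was divided into 4 blocks at the places where its gene order passes from matching one human chromosome to matching another, as textbook knowledge. Block 1 ran from Ghr to Atpsckmt and matches human chromosome 5. Its 55 members had a median of 0.12, with 78.2% higher and 19 higher against 3 lower without overlap. Block 2 ran from Sdc2 to beyond Rpl8, matches human chromosome 8 and holds Myc. Its 133 members had a median of 0.14, with 75.9% higher and 44 against 10 without overlap. Block 3, from Rbfox2 to Rabl2, matches human chromosome 22, and its 106 members had a median of 0.15, with 79.2% higher and 40 against 5. Block 4, from Cpne8 to Itga5 and matching human chromosome 12, had 91 members with a median of 0.17, 74.7% higher and 43 against 5. Over all members, 37.9% were apart upward and 5.97% downward, beside 18.5% and 20.7% of all expressed genes. The block medians thus lay close together, from 0.12 to 0.17. Leaving out 1 array could move a block by more, since block 1 was at 0.071 without NC replicate 1 but 0.21 without shMCT-1 replicate 1. Without shMCT-1 replicate 2, block 2 was at 0.089 and block 3 at 0.078, and block 4 was at 0.25 without shMCT-1 replicate 1. All of these kept their sign.

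**Figure D2:**
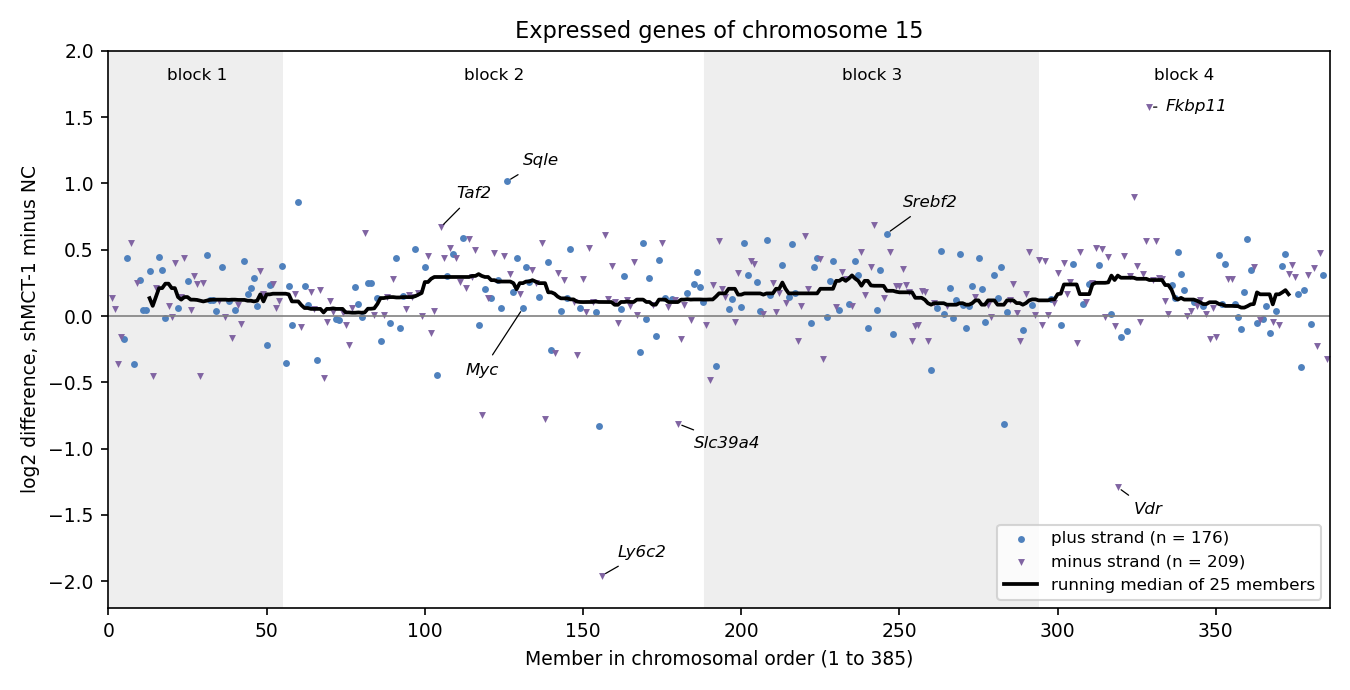
Log2 difference (shMCT-1 minus NC, vertical axis) of each of the 385 members in chromosomal order (horizontal axis), with plus-strand genes as circles, minus-strand genes as triangles, shading by block and a running median over 25 members. The running median stays between 0.025 and 0.32, above 0 along the whole chromosome, while Ly6c2 at -1.96, Vdr at -1.29 and Slc39a4 at -0.81 lie far below it. Ly6c2 and Vdr were members only through NC, which fixed their direction, and were at -0.75 and -0.55 without NC replicate 1.

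Strand made no visible difference. The 176 members on the plus strand and the 209 on the minus strand both had a median of 0.14, with 76.7% and 77.0% higher. Protein-coding members, 303 in number, had a median of 0.16 with 76.2% higher. The 54 pseudogenes had a median of 0.094, which was 0.028 without NC replicate 1 or 0.17 without NC replicate 2, with 81.5% higher. Of them, 3 were lower without overlap against 18 higher. Over all members 37.9% were apart upward and 5.97% downward, beside 18.5% and 20.7% of all expressed genes. The 13 small nuclear RNA genes, which build the spliceosome, had a median of 0.11, but it was -0.17 without shMCT-1 replicate 1 but 0.32 without shMCT-1 replicate 2. Their median deviations of 0.031 and -0.14 in NC and of 0.27 and -0.20 in shMCT-1 overlapped between the groups, and none of them was apart. Of 6 small nucleolar RNA genes, which guide the modification of ribosomal RNA, 5 were higher, with a median of 0.22.

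By level, among the members with the lowest mean levels, 97 genes from 6.005 to 7.45, the median was 0.086 and 69.1% were higher. It was 0.22 for the 96 genes from 7.47 to 9.21 and 0.21 for the 96 from 9.22 to 11.99, where 84.4% were higher. The 96 brightest members, up to 19.1, had a median of 0.11. Without each array in turn these medians ran from 0.037 to 0.14, 0.15 to 0.24, 0.12 to 0.30 and 0.082 to 0.15 in the same order. The range of the brightest members overlapped those of all the other levels.

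Segments of 20 members in a row were used to ask whether parts of the chromosome moved together. All 19 segment medians were above 0, from 0.026 to 0.30, with an SD between segments of 0.078. In 16 of the 19 the segment's median deviations on the shMCT-1 arrays lay above those on both NC arrays. Between 11 and 19 members of each segment were higher. With segments of 10 members, 37 of 38 medians were above 0 and 26 had the arrays apart. With 40 members, 9 of 9 were above 0 and 6 had the arrays apart. Without each array in turn, 18 or all 19 of the medians over 20 members stayed above 0.

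**Figure D3:**
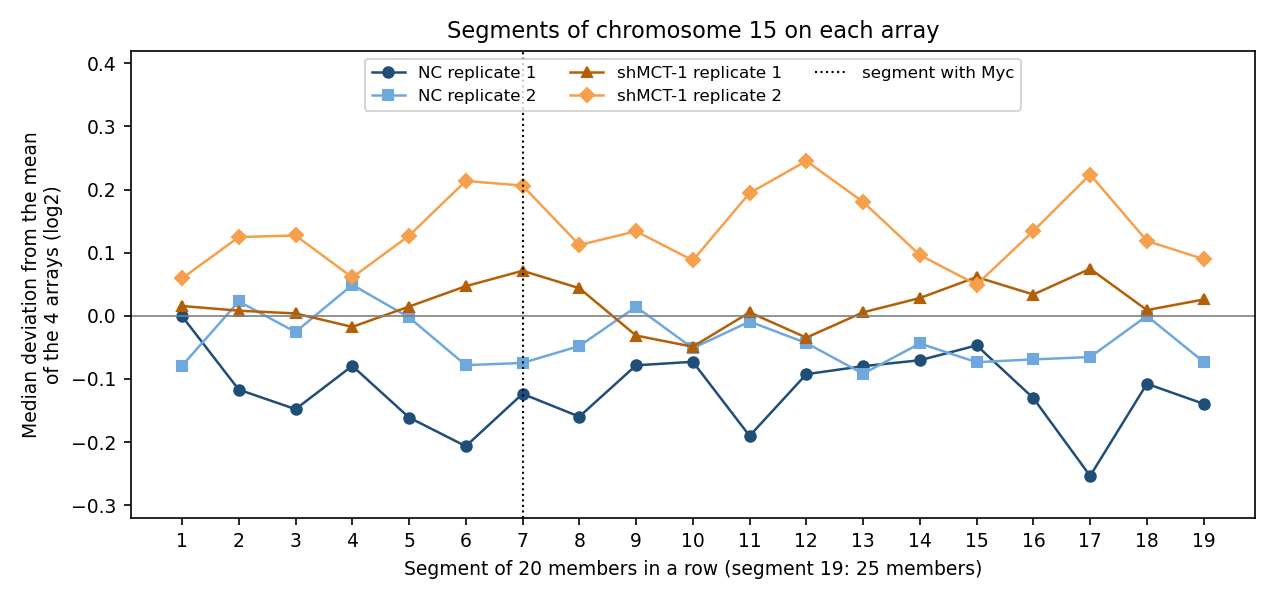
Median deviation of each segment from the mean of the 4 arrays (log2, vertical axis) for the 19 segments of 20 members in order (the last has 25), with a line for each array. The shMCT-1 replicate 2 line lies above both NC lines in every segment, and the dotted line marks the segment that holds Myc, where the shMCT-1 arrays are at 0.071 and 0.21 and the NC arrays at -0.12 and -0.075.

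The flattest segment was the fourth, from Nipal2 to Fzd6, in block 2. Its median was 0.026 with 11 of 20 members higher, and it was -0.050 without NC replicate 1 or -0.013 without shMCT-1 replicate 2. The NC arrays stood at -0.079 and 0.049 and the shMCT-1 arrays at -0.018 and 0.061, so the groups overlapped. The running median had its lowest point in the same place, 0.025 at Azin1, the antizyme inhibitor gene of polyamine metabolism. The highest segments were the sixth, from Ext1 to Tmem65, and the seventeenth, from Senp1 to Spats2, both at 0.30. In the sixth, 16 of 20 members were higher and 10 were apart, with deviations of -0.21 and -0.078 in NC and 0.047 and 0.21 in shMCT-1. In the seventeenth, 18 of 20 were higher and 15 were apart, with deviations of -0.25 and -0.065 in NC and 0.075 and 0.22 in shMCT-1. The higher members of the seventeenth include Lmbr1l. Those of the sixth include Dscc1, with overlap, and a small nucleolar RNA gene that was apart. Each of these passed the threshold of 6 only through its shMCT-1 arrays, which fixed its direction. The sixth also held 1 member apart downward. Over all members 37.9% were apart upward and 5.97% downward, beside 18.5% and 20.7% of all expressed genes. The median deviations of the groups were separate in both of these segments. The running median peaked at 0.32 at Wdyhv1, a short way before Myc.

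Neighbouring members resembled each other little beyond the common shift. Over the 384 pairs of members next to each other, the differences had a Pearson r of 0.095, given as a description across genes that share the same arrays. It was 0.022 over members 2 steps apart and 0.013 over members 3 steps apart. Of the neighbouring pairs, 64.8% had the same sign, where 64.5% would if the same signs were placed without order. On the other chromosomes the r of neighbours ran from -0.018 to 0.47 with a median of 0.090, and chromosome 15 ranked 10 of 20. The highest was that of chromosome 8. The correlation depended on the order and on the arrays, being 0.00034 with each strand ordered by itself and running from 0.0091 without shMCT-1 replicate 1 to 0.19 without shMCT-1 replicate 2.

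Long runs of one sign were runs of higher genes. The longest was 21 members from Ddx23, a splicing helicase gene, to Cers5, a ceramide synthase gene, in block 4. Runs of 19 members went from Fam91a1 to Gm2991, across Myc, and from Pdxp to Gtpbp1 in block 3. The longest runs of lower genes had 3 members, and there were 4 of these, at Fbxo4 to Oxct1, Cyb5r3 to Pacsin2, Hdac7 to Tmem106c and Krt7 to Krt18. No test of run length was made.

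Myc itself hardly differed, though the genes around it were higher. Myc was member 131 in order, with 130 before it and 254 after it, and ranked 33 of 385 by mean level. It was at 14.90 and 14.99 in NC and at 14.94 and 15.06 in shMCT-1. The groups overlapped, with shMCT-1 replicate 1 below NC replicate 2. The difference was 0.059 (SE 0.113, 95% interval -0.24 to 0.35, adjusted p = 0.977, limma), or 1.04-fold, and it was -0.0036 without shMCT-1 replicate 2 or -0.020 after a further quantile normalisation. It stood at percentile 32.7 of the members' differences, below the median of the chromosome. All 12 nearest members, 6 on each side, had positive differences, with a median of 0.33, and 8 of them were apart, where 37.9% of the members and 18.5% of all expressed genes were apart upward. These 12 include Pvt1, which passed the threshold of 6 only through its shMCT-1 arrays.

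On the near side, Sqle stood out. Sqle, squalene epoxidase, an oxygen-requiring and rate-limiting step of cholesterol synthesis, was at 11.47 and 11.82 in NC and at 12.79 and 12.53 in shMCT-1. Both shMCT-1 arrays were far above both NC arrays, a difference of 1.02 or 2.02-fold (SE 0.175, unadjusted p = 0.0026, adjusted p = 0.882, limma). Mtss1, an actin and membrane scaffold gene, was at 8.31 and 7.91 in NC and at 8.55 and 8.58 in shMCT-1, a difference of 0.45 without overlap. Washc5, a subunit of the endosomal WASH complex, was 0.32 higher and Nsmce2, a SUMO ligase of DNA repair, 0.18 higher, both without overlap. Trib1, a pseudokinase gene, differed by 0.44 and Lratd2 by 0.17, and their groups overlapped.

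On the far side, Pvt1 was at 5.74 and 5.96 in NC and at 6.01 and 6.43 in shMCT-1. Its difference of 0.37 (SE 0.183, adjusted p = 0.894, limma) came without overlap, but shMCT-1 replicate 1 lay just above NC replicate 2. Cyrib, a negative regulator of Rac1 signalling, was 0.34 higher and Asap1, an Arf GTPase activator, 0.25 higher, both without overlap, as was the pseudogene Gm5473 at 0.26. Efr3a, a membrane anchor of a phosphatidylinositol kinase, differed by 0.15 and the pseudogene Gm2991 by 0.55, with overlap. NC replicate 1 was the lowest array for Sqle, Trib1, Pvt1, Gm5473, Cyrib and Gm2991, and NC replicate 2 for Mtss1, Washc5, Nsmce2, Lratd2, Asap1 and Efr3a. The low arrays thus alternated between the 2 controls from gene to gene. The segment of 20 members that holds Myc, from Rnf139 to Ccn4, had a median of 0.27 with 18 of 20 higher. Apart were 12 upward and 1 downward. Over all members 37.9% were apart upward and 5.97% downward, beside 18.5% and 20.7% of all expressed genes. Pvt1 is counted in this segment as well as among the 12 nearest members.

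**Figure D4:**
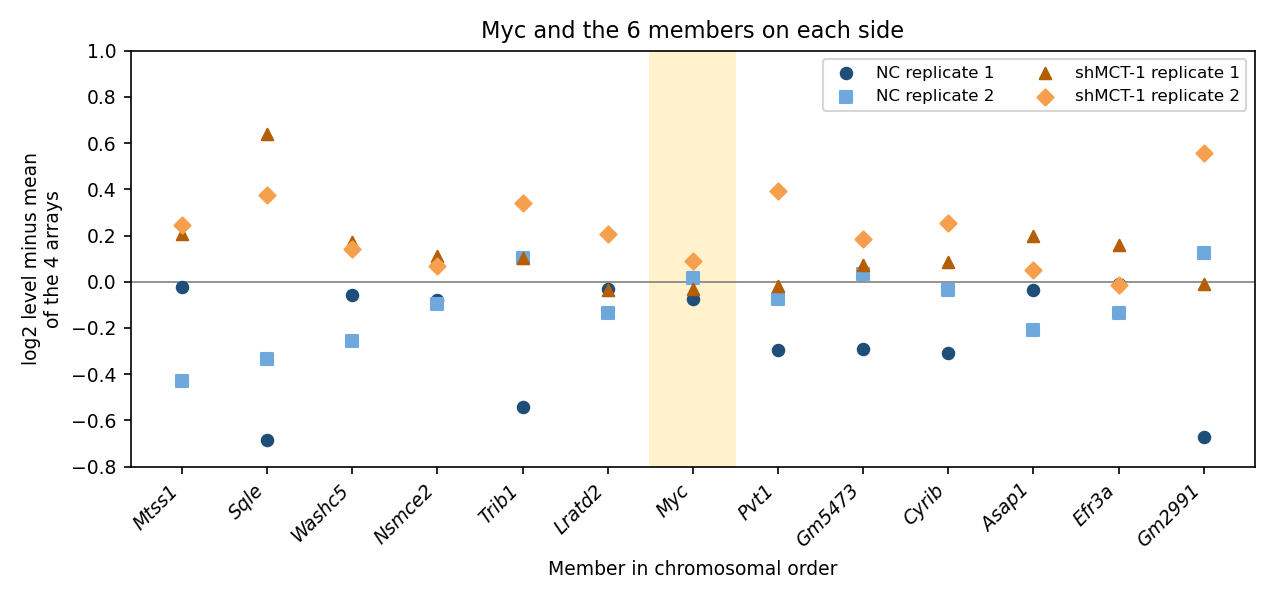
Log2 level minus the mean of the 4 arrays (vertical axis) for Myc, shaded, and the 6 members on each side in chromosomal order (horizontal axis), with a symbol for each array. Myc has its groups overlapping, with levels from 14.90 to 15.06, while Sqle separates the groups by 1.02.

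Across a wider list of 28 genes around Myc, 21 were members, and 18 of these were higher with a median of 0.27. None of the 21 passed the adjusted threshold, 14 were apart and higher, and none was apart and lower. Over all members 37.9% were apart upward and 5.97% downward, beside 18.5% and 20.7% of all expressed genes. The 18 and the 14 include Pvt1, which passed the threshold of 6 only through its shMCT-1 arrays. Atad2, a bromodomain ATPase gene that is a coactivator of Myc and E2F, was at 13.06 and 13.28 in NC and at 13.59 and 13.76 in shMCT-1, a difference of 0.50. All its shMCT-1 values lay above its NC values. Fbxo32, the muscle-wasting ubiquitin ligase atrogin, went the other way at -0.75, but the groups overlapped and it was at -0.13 without NC replicate 1. Ndrg1, a hypoxia-responsive gene, was at 14.28 and 13.39 in NC and at 13.86 and 13.26 in shMCT-1, so its difference of -0.28 lay within the spread of each group. Leaving out each array in turn moved the list's median between 0.21 and 0.30.

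The largest upward difference of the chromosome was that of Fkbp11, a peptidyl-prolyl isomerase of the endoplasmic reticulum found in secretory cells. It was at 6.80 and 7.57 in NC and at 8.26 and 9.26 in shMCT-1. The arrays did not overlap, though they spread widely within each group, and the difference was 1.57 or 2.98-fold (SE 0.424, unadjusted p = 0.015, adjusted p = 0.882, limma). Srebf2, the transcription factor that switches on sterol synthesis genes and whose promoter is shown above, was at 10.30 and 10.24 in NC and at 10.91 and 10.87 in shMCT-1. Its replicates agreed closely and the difference was 0.62 or 1.54-fold (SE 0.104, unadjusted p = 0.0023, the lowest of the members, adjusted p = 0.882, limma). Its range without each array was 0.59 to 0.65. Srebf2 lies in block 3 and its target gene Sqle in block 2, far apart on the chromosome.

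Several genes of transcription and RNA processing followed. Phf5a, a splicing factor subunit, was at 8.75 and 9.33 in NC and at 9.54 and 9.92 in shMCT-1, a difference of 0.69, or 0.40 without NC replicate 1. Taf2, a subunit of the general transcription factor TFIID, was at 11.16 and 11.58 in NC and at 11.98 and 12.10 in shMCT-1, a difference of 0.67. The groups were apart in both genes, with NC replicate 1 the lowest array. Polr2f, a subunit shared by the nuclear RNA polymerases, was 0.58 higher, or 0.33 higher without NC replicate 1, and Pop1, a subunit of the RNA-processing enzyme RNase P, 0.86 higher without overlap. For Pop1 the difference was 0.34 without NC replicate 1 but 1.38 without NC replicate 2.

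Further genes were higher without overlap. Nr4a1, an immediate early nuclear receptor, was at 6.62 and 6.67 in NC and at 7.11 and 7.34 in shMCT-1, a difference of 0.58 (SE 0.127, unadjusted p = 0.0071, adjusted p = 0.882, limma). Mrpl13, a protein of the mitochondrial large ribosomal subunit, was at 9.79 and 9.76 in NC and at 10.32 and 10.26 in shMCT-1, a difference of 0.52 (SE 0.103). Each shMCT-1 array was well above each NC array in both. Ext1, an enzyme that extends heparan sulphate chains, was at 8.84 and 8.95 in NC and at 9.35 and 9.33 in shMCT-1, a difference of 0.45. Top1mt, the mitochondrial topoisomerase, was 0.61 higher, and Zhx2, a zinc finger and homeobox repressor, 0.59 higher. Prkag1, a regulatory subunit of the energy sensor AMPK, was 0.57 higher, with 0.34 without NC replicate 1. The 9 members past 1.5-fold at an unadjusted p under 0.05 were Fkbp11, Sqle, Phf5a, Taf2, Srebf2, Top1mt, Zhx2 and the small nucleolar RNA genes Snora2b and Snord43, these last named after their values were seen.

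Fewer genes were lower than higher. Slc39a4, the zinc importer whose loss causes a zinc deficiency disease, was at 12.61 and 12.32 in NC and at 11.69 and 11.62 in shMCT-1. Both shMCT-1 arrays were below both NC arrays, a difference of -0.81 (SE 0.140, unadjusted p = 0.0026, adjusted p = 0.882, limma), which ran from -0.96 to -0.67 without each array. Npr3, the clearance receptor of natriuretic peptides, was at 10.88 and 10.78 in NC and at 10.33 and 10.43 in shMCT-1, a difference of -0.45 (SE 0.112). Mal2, a protein of epithelial transcytosis, was at 12.47 and 12.27 in NC and at 12.01 and 11.83 in shMCT-1, a difference of -0.45 (SE 0.135). The groups were apart in all of these, and replicates of Npr3 lay closest together. Tmem71 was at 8.45 and 7.72 in NC and at 7.45 and 7.17 in shMCT-1, a difference of -0.77 that was -0.41 without NC replicate 1.

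The lowest values of the chromosome rested on NC replicate 1. Ly6c2, a surface antigen of monocytes, was at 8.40 on that array, at 5.99 on NC replicate 2, and at 5.32 and 5.16 in shMCT-1. The difference of -1.96 was -0.75 without NC replicate 1. Vdr, the vitamin D receptor, was at 7.50, 6.03, 5.73 and 5.22 in the same order, and its difference of -1.29 was -0.55 without NC replicate 1. Both were without overlap but with most of the distance due to 1 array, and Osmr, the oncostatin M receptor, behaved alike, at -0.45 and at -0.12 without it. Ly6e, a surface antigen induced by interferon, was at 9.93 on NC replicate 1 and between 7.999 and 8.27 on the others, and its difference of -0.83 became 0.14 without that array. Cd68 and the mean of the 5 macrophage markers were highest on the same array, as given above, but Cd14 was lowest on it. The part of these markers in the differences was not tested. Ly6c2, Vdr and Osmr had group means under 6 in shMCT-1, so they passed the threshold through NC alone. Ly6c2 has close relatives on the chromosome whose transcripts may share probes with it.

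Among the other members that were lower without overlap were adhesion and cell surface genes. Sdc2, a heparan sulphate proteoglycan, was at 9.71 and 9.47 in NC and at 9.23 and 9.25 in shMCT-1, a difference of -0.35. Itga5, the fibronectin receptor subunit at the far end of the chromosome, was at 8.87 and 9.01 in NC and at 8.52 and 8.71 in shMCT-1, a difference of -0.33. NC arrays were the higher ones in each, by a margin close to the spread within the groups for Itga5. Ankrd46 was at -0.47, Fbxo4, an F-box gene of ubiquitin ligases, at -0.36, and Klf10, a zinc finger gene induced by TGF-beta, at -0.22. Klf10 was at -0.045 without shMCT-1 replicate 1.

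The members were also sorted by role into 13 lists of genes on chromosome 15, of whose 306 genes 167 were members. The medians of 11 lists were above 0. No gene of any list passed the adjusted threshold, in either direction. The lists were written with earlier results known, and 22 members stand in more than 1 of them. A list's count is to be read against the chromosome, where 76.9% of members were higher with a median of 0.14. Its members apart are to be read against the 37.9% of members that were apart upward and the 5.97% apart downward, beside 18.5% and 20.7% of all expressed genes. Genes named below outside the largest differences of each list were chosen after their values were seen.

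Cell division and genome maintenance was the list with all of its members higher, 21 of 21, with a median of 0.26 and 12 apart. The 21 include Ddx23, named above as a splicing helicase gene, at 0.31 with overlap. The differences ran from 0.018 to 0.50. Cenpm, a centromere protein, was at 8.30 and 8.49 in NC and at 8.77 and 8.99 in shMCT-1, a difference of 0.49. Troap, a spindle protein, was at 7.96 and 8.29 in NC and at 8.38 and 8.83 in shMCT-1, a difference of 0.48. The shMCT-1 arrays were above the NC arrays in both, by less than the spread within groups for Troap. Mtbp, a replication regulator, was 0.47 higher and Xrcc6, the Ku70 subunit of end joining, 0.34 higher without overlap, while the tubulin Tuba1a differed by 0.018. The median of the list was 0.13 without NC replicate 1 but 0.45 without shMCT-1 replicate 1.

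Chromatin and RNA processing had 20 of 21 members higher, a median of 0.28, and 15 apart. Besides Phf5a, Taf2 and Polr2f, described above, Cbx5, which encodes the heterochromatin protein HP1-alpha, was at 9.50 and 9.85 in NC and at 10.15 and 10.15 in shMCT-1, a difference of 0.48. Its shMCT-1 arrays were level and above both NC arrays. Hdac7, a histone deacetylase gene, had the only value below 0, at -0.073 with overlap. Without each array the median of the list ran from 0.19 to 0.40.

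Translation and ribosome biogenesis had 18 of 19 members higher, with a median of 0.26 and 11 apart. Counted here is Puf60, a splicing factor gene also on the chromatin and RNA processing list, at 0.40 without overlap. Nol12, a nucleolar protein, was at 8.84 and 9.58 in NC and at 9.39 and 10.13 in shMCT-1, a difference of 0.55. Bop1, which acts in maturation of the large ribosomal subunit, was at 11.10 and 12.01 in NC and at 11.83 and 12.37 in shMCT-1, also 0.55. The replicates numbered 2 were higher than those numbered 1 in both genes, and the groups overlapped. The initiation factor genes Eif3h and Eif3e were each 0.14 higher without overlap, and Pabpc1, the poly(A)-binding protein, was at -0.046. The median was 0.50 without NC replicate 2 but 0.17 without shMCT-1 replicate 2, so its size depended on the arrays.

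The mitochondria list had 13 of 16 members higher, a median of 0.31 and 9 apart. These counts include Nup155, a nuclear pore gene placed on the list, which was 0.44 higher without overlap. Slc25a32, a mitochondrial folate carrier, differed by 0.62, and Tomm22, a receptor of the outer membrane import complex, by 0.54, but the groups overlapped in both. Samm50, a core protein of outer membrane assembly, was at 11.61 and 11.88 in NC and at 12.10 and 12.37 in shMCT-1, a difference of 0.49. Its groups were apart, by a little less than the distance within each. Tspo, an outer membrane cholesterol-binding protein, was at -0.40 with overlap and at -0.0079 without NC replicate 1. The median of the list was 0.18 without NC replicate 1 or 0.17 without shMCT-1 replicate 2.

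Of 8 solute carrier members 6 were higher, close to the share of the whole chromosome, with a median of 0.31. The list held Slc39a4, which had the lowest unadjusted p of the lower members. Slc38a2, a glutamine and alanine transporter induced by amino acid shortage, was at 13.68 and 13.44 in NC and at 14.15 and 13.97 in shMCT-1, a difference of 0.50. Its neighbour Slc38a1, of the same family, was at 12.31 and 12.65 in NC and at 12.82 and 13.16 in shMCT-1, a difference of 0.51. The groups were apart in both. The median of the list was 0.16 without shMCT-1 replicate 2.

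Sterol and lipid metabolism had 5 of 8 members higher, with a median of 0.13, and 3 apart upward against 2 downward. Sqle and Srebf2 accounted for the large values. Gpaa1, a subunit of the enzyme that attaches lipid anchors to proteins, differed by 0.55 with overlap. Cyb5r3, a cytochrome b5 reductase, was at 9.08 and 8.996 in NC and at 8.83 and 8.87 in shMCT-1, a difference of -0.19, and Mcat, of mitochondrial fatty acid synthesis, was also at -0.19. Both were lower without overlap. The median of the list was 0.040 without shMCT-1 replicate 2.

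Kinases and signalling had 16 of 22 members higher, a median of 0.15, and 10 apart upward against 1 downward, which was Tns2 at -0.13. Pim3, a survival kinase, was at 8.69 and 8.74 in NC and at 8.89 and 9.28 in shMCT-1, a difference of 0.37. Rictor, the defining subunit of mTOR complex 2, was at 10.18 and 10.19 in NC and at 10.48 and 10.57 in shMCT-1, a difference of 0.34 with close replicates. The shMCT-1 arrays were above the NC arrays in both. The list's median was 0.098 without NC replicate 1.

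Transcription factors and stress genes had 8 of 13 members higher, with a median of 0.16, and 6 apart upward against 2 downward. These counts include Csrnp2, which passed the threshold of 6 only through shMCT-1, and Vdr, which passed only through NC. The direction of both was thus fixed. Atf4, the effector of the integrated stress response, was at 9.94 and 9.37 in NC and at 10.00 and 10.18 in shMCT-1, a difference of 0.44 that was 0.15 without NC replicate 2. Its lower shMCT-1 array was close to NC replicate 1. Vdr and Nr4a1 were at the ends of the list. Its median was 0.098 without NC replicate 2 or 0.085 without shMCT-1 replicate 2.

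Of 18 adhesion, matrix and cytoskeleton members 11 were higher. Their median was 0.027, and without each array it ran from -0.0090 to 0.080, and 6 were apart upward against 3 downward. Has2, a hyaluronan synthase, was at 11.50 and 13.17 in NC and at 12.17 and 13.38 in shMCT-1, so that its difference of 0.44 was far smaller than the spread within groups. Mtss1 and Ext1 led the higher genes and Sdc2 and Itga5 the lower. Myo10, an unconventional myosin of filopodia, was at 8.93 and 9.07 in NC and at 9.35 and 9.48 in shMCT-1, a difference of 0.41.

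Ubiquitin and protein turnover had 10 of 12 members higher, with a median of 0.098 and 4 apart upward against 1 downward. The median was 0.044 without NC replicate 1, 0.041 without shMCT-1 replicate 2 but 0.19 without shMCT-1 replicate 1. Skp2, the F-box protein that targets the inhibitor p27, was at 11.004 and 11.70 in NC and at 11.51 and 11.99 in shMCT-1, a difference of 0.40 with overlap. Fbxo32 and Ankrd46, given above, were the lower members, and Ankrd46, an ankyrin repeat gene, was the one apart. Fbxo4, the F-box gene given above at -0.36 and lower without overlap, was not on the list, so the count leaves it out.

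Keratins and receptors were the lists with medians below 0. Of 24 keratin genes listed, 4 were expressed. Krt8, the simple epithelial keratin, was at 15.74 and 16.11 in NC and at 15.79 and 15.998 in shMCT-1, and its partner Krt18 at 16.43 and 16.73 in NC and at 16.54 and 16.57 in shMCT-1. Their differences of -0.028 and -0.022, like that of Krt7 at -0.050, were small, and the groups overlapped in each. Krt80 differed by 0.37 with overlap and by -0.093 without NC replicate 1. The median of the keratins was -0.025, and it turned to 0.14 without NC replicate 2 or 0.034 without shMCT-1 replicate 1. Of 31 receptor and immune genes 6 were members, with 4 lower, a median of -0.45 and 3 apart downward. That median was -0.047 without NC replicate 1, which carried most of the distance for Ly6c2, Ly6e and Osmr. Ly6c2 and Osmr were members only through their NC arrays, so that the count and median of this list support nothing about its direction. Ghr, the growth hormone receptor, and Lgals1, galectin-1, differed by 0.13 and 0.065 with overlap.

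**Figure D5:**
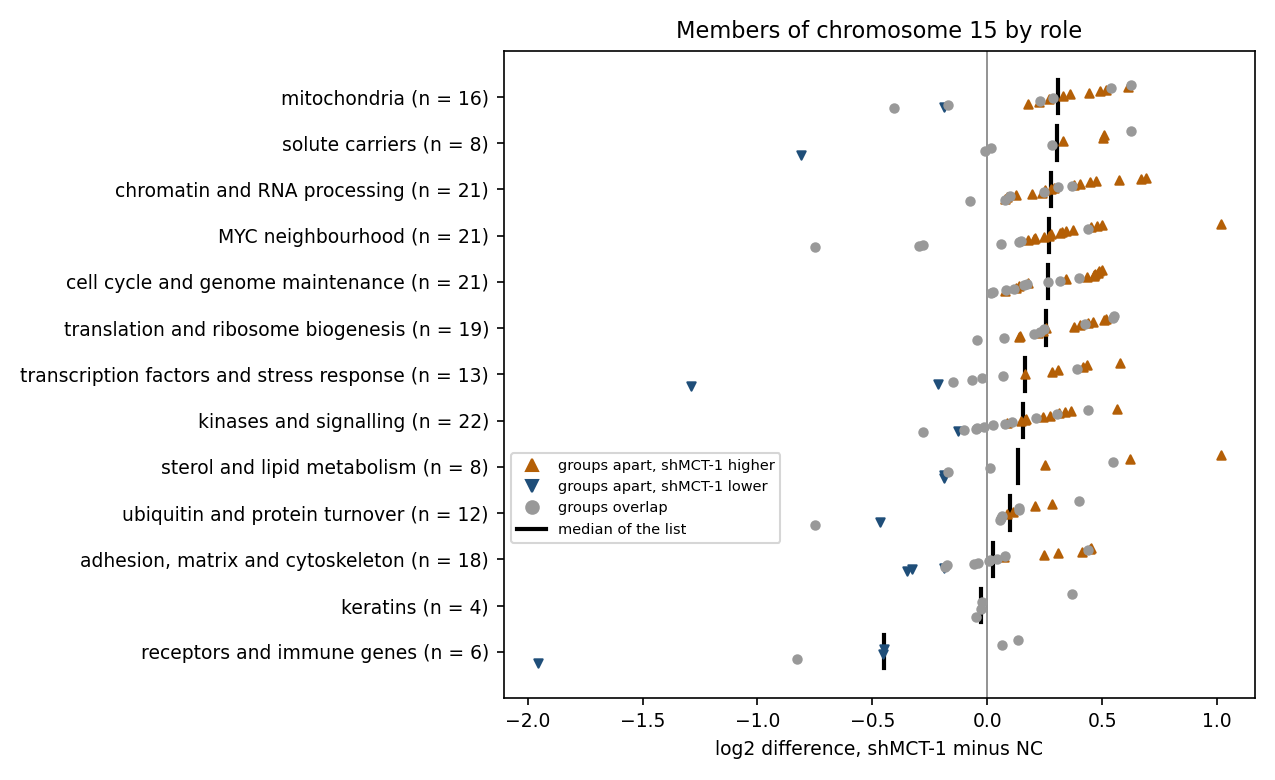
Log2 difference (shMCT-1 minus NC, horizontal axis) of the members of each role list (vertical axis), with triangles where the arrays of the groups do not overlap, grey circles where they do, and a black bar at the median of each list. Medians run from -0.45 for receptors and immune genes to 0.31 for mitochondria, and 11 of 13 are above 0. The mitochondria list includes Nup155, a nuclear pore gene. The list of receptors and immune genes includes Ly6c2 and Osmr, members only through NC.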

How the data were processed

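Per the submitters' processing notes, the authors summarised the arrays per gene with RMA in Affymetrix Expression Console, on a log2 scale. Versions and the build of the design are not given in the sources used. No further transformation was applied, and 0 columns of values were left out. The members and the role lists were chosen with earlier results of these data known. The platform annotation gave 1 symbol to 30604 of 65956 rows, several to 2146 and none to 33206. A mouse gene table (GRCm38.p6) updated 827 symbols and supplied the order of genes over both strands. It matched 382 of 385 members, and the other 3 were placed by their identifiers. Identifier order and table order disagreed at 0 steps on the plus strand and 2 on the minus strand.

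The groups were compared by limma 3.58.1 (R 4.3.3) over the whole table (lmFit, eBayes, no trend, two-sided). P-values were adjusted over all rows by Benjamini-Hochberg, with 0.05 as the threshold. There were 2 residual and 2.72 prior degrees of freedom, and the fit was tested on simulated data. The number of arrays limits the precision. Medians and counts over members carry no test. Genes named were Myc and 6 members on each side, the 12 with the largest difference per direction among those without overlap, the 6 with the lowest p per direction, the 3 largest per list, Mcts1 and the ends of segments. A gene of this rule is not reported here. Unnamed predicted and small RNA genes were counted. Alternatives were other thresholds and normalisations, a variance trend, repeated rows or tandem families left out, the order within strands, the replicate number as a block, and each array left out, with the remaining array of that group taken to vary as the arrays of the other.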

Additional observations from a re-analysis of the deposited data

How the results depend on the processing

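No result reversed a call. The count of members past the adjusted threshold was 0 under every alternative run. The median, the share of higher members and the 4 block medians stayed on the higher side under each alternative run, with the share between 70.1% and 78.5%. In all, 113 alternative values kept their direction and side of the threshold, or moved by less than the spread between replicates. Among these the difference of Myc, never past the threshold, changed sign to -0.020 with a further quantile normalisation and to -0.0036 in the leave-one-out fits. Beyond leaving out arrays, the count of lower members at an unadjusted p under 0.05 and 1.5-fold, 2 as reported, was 4 with each array centred and 6 with the replicate block. The r of neighbours, 0.095 as reported, was 0.00034 with each strand ordered by itself. Leaving out each array gave 5 to 52 higher and 1 to 15 lower members by that rule. It gave 0.10 to 0.21 for the median of all members, 0.071 to 0.21 for block 1, 0.089 to 0.18 for block 2, 0.078 to 0.22 for block 3, 0.14 to 0.25 for block 4 and 0.0091 to 0.19 for the r of neighbours. The causes of these moves were not tested, beyond the smaller number of arrays. The groups share replicate numbers, but the labels name no shared batch and there are only 2 numbers. Same-numbered arrays deviated together, with a correlation of 0.42 over all rows and 0.73 over the members. With the replicate block the count of higher members was 11 and that past the adjusted threshold 0. The array signal over background limits dim rows, and 447 genes would be members at a mean of at least 5 and 321 at 7. With the 374 members whose mean was at least 6 in both groups, an alternative chosen after seeing the data, the median was 0.14 and 77.3% were higher.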

Other observations

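Rows of chromosome 15 that the rule for members did not take were examined in the same way, as values with no test. At a mean of at least 6, 114 rows that the annotation did not list had a median difference of 0.23, and 86.8% of them were higher, where unlisted rows of other chromosomes had 0.13 and 71.2%. The 28 rows with several symbols had a median of 0.19 with 85.7% higher, against 0.075 and 66.7% elsewhere. These bright rows were thus higher in the arrays labelled shMCT-1 as the members were, but their counterparts on other chromosomes were higher as well.

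With a single symbol and a mean of 5 to 6, 62 rows had a median of 0.082 with 67.7% higher, against -0.0054 and 48.8% on other chromosomes. At a mean of 4 to 5, the 118 rows had a median of 0.025 with 56.8% higher, against 0.023 and 56.5%. Below 4, the 454 rows had a median of 0.023 with 60.8% higher, against 0.013 and 55.2%. The distance from the other chromosomes at a mean of 5 to 6 was about that of the brighter unlisted rows, and it was small at lower levels.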
